A study of Mus musculus with 6 samples.

Results

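The miR-22 and miR-26 genes of the mouse heart, Mir22, Mir26a-1, Mir26a-2 and Mir26b, were taken by gene name and make up 4 of 2207 miRNA features among 30638 features of non-coding RNA. Knockout hearts came from 3 C57BL/6 mice titled L/L, cre and labelled Elac2 -/-, in which a loxP-flanked Elac2 exon was removed by cre driven from the muscle creatine kinase promoter, so deletion was directed to striated muscle and not to the other cell types of the heart. Control hearts came from 3 C57BL/6 mice titled L/L and labelled Elac2 +/+, which by their title carry the floxed alleles without cre. Elac2 encodes RNase Z, which removes 3′ trailers from tRNA precursors, and the comparison asked what its loss does to mitochondrial and nuclear non-coding RNA. Ages were not given, Elac2 mRNA was not analysed here, and the libraries held inserts of 15 to 100 nt from total RNA of whole hearts. Total counts were 14505705 to 15271036 in knockout hearts and 13510061 to 16248673 in control hearts, and miRNA features held 29.2% to 33.3% of them in knockout hearts and 39.5% to 43.4% in control hearts. Fewer features had any count in knockout hearts, 2995 to 3160, than in control hearts, 4664 to 6018.

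A miRNA is cut from a hairpin transcript by Drosha in the nucleus and Dicer in the cytoplasm, and 1 arm of the hairpin then guides an Argonaute protein to mRNAs that pair with its seed, bases 2 to 8. miR-22 is known as an abundant miRNA of heart and skeletal muscle that takes part in cardiac hypertrophy and remodelling in mice. miR-26 is a vertebrate family carried by genes of the Ctdsp phosphatases, widely expressed, and known to repress the chromatin regulator Ezh2.

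The mature RNAs are shown because their shared letters decide which reads can be told apart between genes. Sequences are from RefSeq on GRCm38.p6, all 4 genes matched, and capitals mark the seed:
miR-26a-5p: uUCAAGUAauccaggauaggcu
miR-26b-5p: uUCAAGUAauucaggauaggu
miR-22-3p: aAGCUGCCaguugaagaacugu
miR-22-5p: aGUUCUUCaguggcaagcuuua

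miR-26a-5p and miR-26b-5p shared the seed UCAAGUA, which no other of the 1679 mature miRNAs in the RefSeq table used here carried. Counted from the 5′ end of miR-26a-5p, they differed by C11U and C21U, and miR-26b-5p had 21 bases against 22 for miR-26a-5p. An exact search of annotated transcripts found miR-26a-5p in Mir26a-1 and Mir26a-2 alone, so a full-length 5p read cannot be placed in either gene by its sequence. miR-26b-5p was found in Mir26b alone, and so was its 3p arm. Both arms of miR-22 were found in 3 annotated genes, Mir22, the non-coding Mir22hg and the protein-coding Tlcd2.

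The hairpins are shown because the miR-26 genes differ outside the 5p arm. Capitals mark the mature arms, 5p before 3p:
Mir26a-1: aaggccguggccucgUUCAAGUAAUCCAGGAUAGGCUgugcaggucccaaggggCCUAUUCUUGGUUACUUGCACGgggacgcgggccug
Mir26a-2: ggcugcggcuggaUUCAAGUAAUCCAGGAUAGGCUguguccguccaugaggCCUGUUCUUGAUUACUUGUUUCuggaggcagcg
Mir26b: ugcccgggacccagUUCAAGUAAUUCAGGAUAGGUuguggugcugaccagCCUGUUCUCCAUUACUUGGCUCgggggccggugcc
Mir22: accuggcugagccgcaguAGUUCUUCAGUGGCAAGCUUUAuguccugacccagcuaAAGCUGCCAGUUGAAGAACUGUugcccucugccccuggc

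In pairwise alignment the Mir26a-1 and Mir26a-2 hairpins were identical at 66 of 91 columns (72.5%). Mir26b was identical to Mir26a-1 at 68.8% and to Mir26a-2 at 67.4% of columns. The 3p arms had a sequence of their own in each gene and their seeds fell in 2 groups, CUAUUCU for Mir26a-1 and CUGUUCU for Mir26a-2 and Mir26b. In that table only the CUGUUCU seed occurred elsewhere, in miR-6932-3p and miR-7039-3p, whose genes had at most 5 counts in any library and were too low to test.

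In GENCODE M21 on GRCm38 (mm10), every miR-26 gene lay on the plus strand in a gene of the Ctdsp family, which encodes phosphatases that act on the tail of RNA polymerase II. Mir26a-1 was at chr9:119031796-119031885 in an intron of Ctdspl. Mir26a-2 was at chr10:126995530-126995613 in Ctdsp2, intronic except for its last base, which touched an exon. Mir26b was at chr1:74394310-74394394 in an intron of Ctdsp1. Mir22 differed in kind: its 95 nt at chr11:75463716-75463810, plus strand, lay whole in an exon of Mir22hg and in an exon of Tlcd2, both on the same strand. The host mRNAs were not analysed here.

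The name abundant held for the miR-26 genes and not for Mir22 in these counts. Mir22 (ENSMUSG00000065529.1) had 0 counts in knockout replicates 1, 2 and 3 and 0 counts in control replicates 1, 2 and 3. At 3 counts, a count of 0 allows up to 0.218, 0.237 and 0.226 CPM (counts per 1e6 of library size, with library sizes scaled by TMM factors) in the knockout hearts and 0.195, 0.169 and 0.164 CPM in the control hearts. These limits cover counting error only and concern reads assigned to this feature. No fold change, test, ratio or pattern of likeness was computed for Mir22, and the authors' deposited table lists it with a mean of 0. Both arms also match Mir22hg and Tlcd2, which overlap Mir22, and how reads in overlapping features were counted is not stated. The 0 is a value of the count table and by itself does not show the level of miR-22 in the heart.

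Mir22hg, the non-coding host transcript, had 3, 1 and 0 counts in knockout replicates 1 to 3 and 4, 5 and 5 counts in control replicates 1 to 3. That is 4 counts over the knockout hearts and 14 over the control hearts, under the level tested. In the authors' deposited table the log2 fold change of Mir22hg was -1.74 with an adjusted p of 0.402. So few reads lay in the host feature that miR-22 reads, if any were sequenced, were not counted there in number either. Tlcd2 was not analysed here.

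Position inside another non-coding exon went with a count of 0 across the miRNA features. All 2207 had a position, and 104 hairpins lay whole inside a same-strand exon of another non-coding feature of the table, and 102 of these (98.1%) were at 0 in all 6 libraries. Of 57 hairpins that overlapped such an exon in part, 24 (42.1%) were at 0. Of the 2046 with no such overlap, 1203 (58.8%) were at 0.

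The difference was clearest where reads are usual. Among 49 listed abundant heart miRNAs in the table, 7 of 9 with a hairpin whole inside such an exon were at 0, namely Mir101a, Mir125b-1, Mir29c, Mir30c-2, Mir30d, Mirlet7d and Mirlet7i. None of the 4 with a part overlap and none of the 36 with no overlap was at 0. The non-coding transcripts around the 7 hairpins had between 3 and 42 counts in all 6 libraries together. The exceptions were Mirlet7a-1 and Mirlet7f-1, let-7 genes inside the non-coding 6720427I07Rik, with 138531 and 654845 counts over the 6 libraries. Mirlet7d, among the 7 at 0, lay whole inside an exon of the same transcript. By the GENCODE M21 exons used here, this host thus held both a hairpin at 0 and hairpins with many counts. Such a position therefore did not always go with a 0. The annotation used for counting is not stated, and its exons may differ. Protein-coding genes were not features of the table, and Mir21a, with its 92 nt inside an exon of the protein-coding Vmp1, had 532492 counts. Mir21a, Mirlet7a-1, Mirlet7f-1 and the 7 at 0 were named here after their values were seen. The sources used here do not state how reads in overlapping features were counted, and its part in the 0 of Mir22 was not tested.

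**Figure D1:**
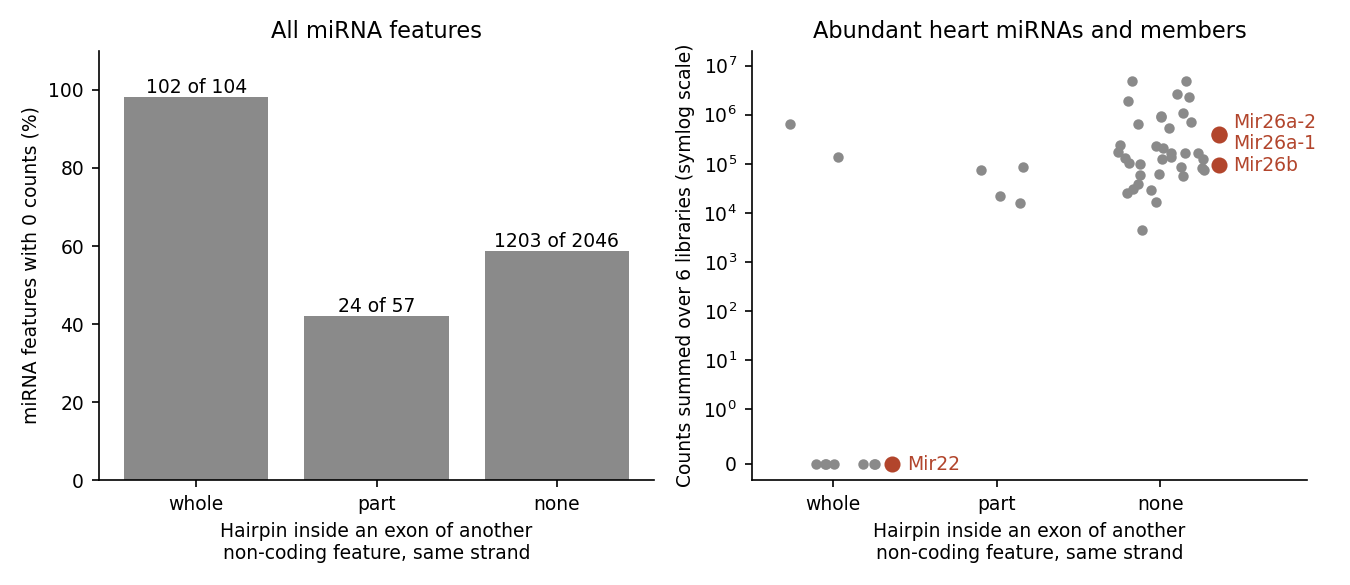
The left panel gives the percent of miRNA features with 0 counts in all 6 libraries, by whether the hairpin lies whole, in part or not inside a same-strand exon of another non-coding feature; 102 of 104 features wholly inside were at 0. The right panel plots counts summed over the 6 libraries on a symlog axis for the listed abundant heart miRNAs in grey and the miR-22 and miR-26 genes in red, with Mir22 at 0 and the miR-26 genes among features with no overlap.

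The miR-26 genes were read deeply in every heart. The gene order was the same in both groups when levels were set per length: Mir26a-2 had 4668 ± 495 CPM per 100 nt in knockout hearts and 5628 ± 462 in control hearts (SD, n = 3 each). Mir26a-1 had 4253 ± 490 CPM per 100 nt in knockout hearts and 5239 ± 568 in control hearts. Mir26b was lower, with 1177 ± 129 CPM per 100 nt in knockout hearts and 1250 ± 110 in control hearts. Mir26a-2 and Mir26a-1 lay within each other's spread in either group, while Mir26b lay apart from both. Hairpin lengths of 84 nt for Mir26a-2 and 90 nt for Mir26a-1 widened the gap between these genes. Without length their control means were 4728 and 4715 CPM, and in control replicate 1 Mir26a-1 was the higher. Among 312 tested miRNA features, Mir26a-2, Mir26a-1 and Mir26b ranked 15, 17 and 36 by this level in knockout hearts and 13, 14 and 37 in control hearts. The miRNA class follows the authors' gene types and takes in Snord43, a snoRNA by name, marked here after its values were seen. Snord43 averaged 9305 CPM per 100 nt over the 6 libraries and rose (log2 fold change 1.71, adjusted p = 1.55e-06). Ranks, miRNA totals and miRNA factors include it.

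Mir26a-1 (ENSMUSG00000065513.1) had 46329, 49053 and 56379 counts in knockout replicates 1 to 3 and 81633, 79043 and 80395 counts in control replicates 1 to 3. Scaled, these were 3364, 3879 and 4241 CPM in knockout hearts and 5304, 4450 and 4390 CPM in control hearts. Every knockout heart was below every control heart, and the closest values, knockout replicate 3 and control replicate 3, lay near each other. The means were 3828 ± 441 CPM in knockout hearts and 4715 ± 511 CPM in control hearts. The log2 fold change was -0.30 (SE 0.15, 95% interval -0.62 to 0.02) and did not pass the test across all features (adjusted p = 0.110).

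Mir26a-2 (ENSMUSG00000065430.1), the other source of miR-26a-5p, had 48022, 50097 and 57370 counts in knockout replicates 1 to 3 and 79609, 80903 and 81595 counts in control replicates 1 to 3. Scaled, these were 3487, 3961 and 4315 CPM in knockout hearts and 5172, 4555 and 4456 CPM in control hearts. The groups again did not overlap, with the same heart highest in each group as for Mir26a-1. The means were 3921 ± 416 CPM in knockout hearts and 4728 ± 388 CPM in control hearts. The log2 fold change was -0.27 (SE 0.14, 95% interval -0.58 to 0.04, adjusted p = 0.131).

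Mir26b (ENSMUSG00000065468.1) had 12195, 12778 and 14688 counts in knockout replicates 1 to 3 and 16612, 20365 and 17612 counts in control replicates 1 to 3. Scaled, these were 885, 1010 and 1105 CPM in knockout hearts and 1079, 1146 and 962 CPM in control hearts. The groups overlapped, since control replicate 3 was below knockout replicates 2 and 3. The means were 1000.2 ± 110 CPM in knockout hearts and 1063 ± 93.5 CPM in control hearts. The log2 fold change was -0.09 (SE 0.16, 95% interval -0.44 to 0.26, adjusted p = 0.659).

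**Figure D2:**
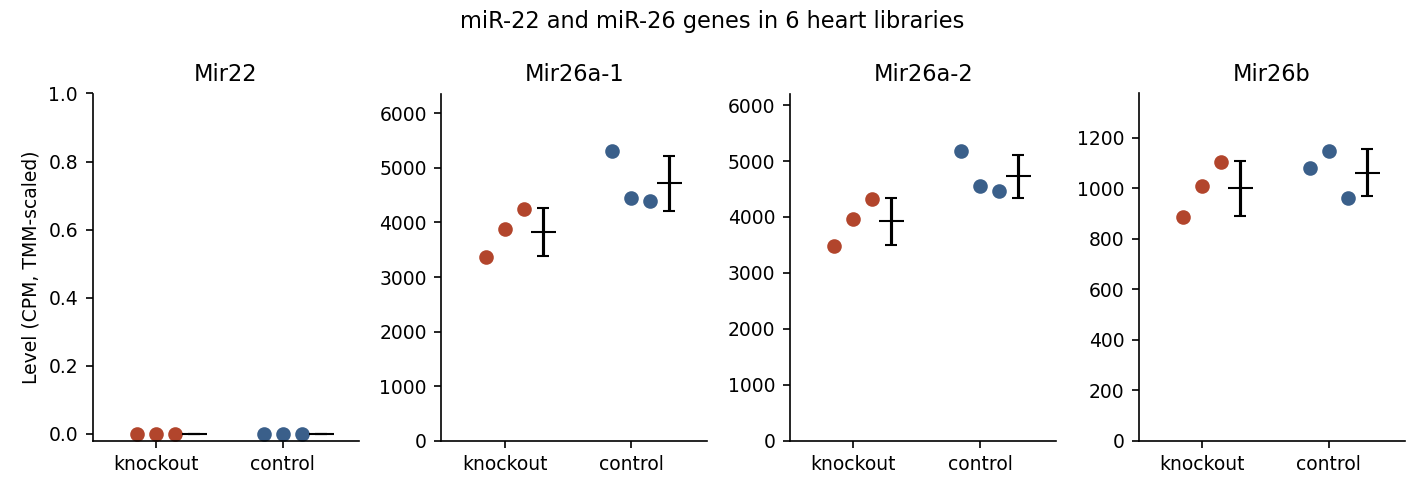
Each panel plots the level of a gene (CPM, TMM-scaled, axis from 0) in 3 knockout hearts in red and 3 control hearts in blue, with replicates 1 to 3 from left to right and the mean ± SD as a bar. Mir22 is at 0 in all 6 libraries, the groups of Mir26a-1 and Mir26a-2 do not overlap, and those of Mir26b do.

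None of the 3 tested miR-26 genes was called, in a comparison that called 574 of 1144 tested features (50.2%) and 73 of 312 tested miRNA features (23.4%) at an adjusted p under 0.05. Of all tested features, 27.0% were called lower in knockout hearts and 23.2% higher, and of the miRNA features 6.41% were called lower and 17.0% higher. Groups that do not overlap, with the knockout hearts lower, as for Mir26a-1 and Mir26a-2, were found in 12.8% of tested miRNA features and 33.7% of all tested features. In whole hearts, fewer cells of a type and less RNA per cell cannot be told apart. In the authors' deposited table the log2 fold changes were -0.26 for Mir26a-1, -0.23 for Mir26a-2 and -0.05 for Mir26b, with adjusted p-values of 0.289, 0.333 and 0.856.

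Since the 5p reads of Mir26a-1 and Mir26a-2 cannot be separated by sequence, their counts were also summed. The sum was 94351, 99150 and 113749 counts in knockout replicates 1 to 3 and 161242, 159946 and 161990 counts in control replicates 1 to 3. Fitted as 1 feature, it gave a log2 fold change of -0.29 (SE 0.14, 95% interval -0.59 to 0.02, adjusted p = 0.105). With Mir26b added, the log2 fold change of the sum of the 3 genes was -0.27 (SE 0.14, 95% interval -0.57 to 0.03).

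The size of these changes depended on how libraries were scaled. Total counts alone gave log2 fold changes of -0.65 for Mir26a-1, -0.62 for Mir26a-2 and -0.43 for Mir26b, all 3 past the test (adjusted p = 0.00247, 0.00257 and 0.0338), with 20.5% of miRNA features called lower. Factors computed from miRNA features gave -0.48, -0.45 and -0.28, with Mir26a-1 and Mir26a-2 past the test (adjusted p = 0.0104 and 0.0130) and Mir26b not (adjusted p = 0.172), against 12.2% of miRNA features called lower. Factors from snoRNA and scaRNA features gave -1.15, -1.12 and -0.93, all called, with 50.0% of miRNA features called lower. Factors from snRNA and nuclear rRNA features turned the sign to 0.25, 0.29 and 0.48, none called, with 1.28% of miRNA features called lower. Of all 1144 tested features, these scalings called 431, 356, 659 and 224 lower, in the order given.

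These scalings moved the log2 fold change of all features by a median of -0.34 (total counts), -0.18 (miRNA factors), -0.84 (snoRNA and scaRNA factors) and 0.55 (snRNA and rRNA factors), and median-of-ratios factors by -0.02. Features called higher made up 46.2% of calls in the main scaling and, in the order above, 28.3%, 34.8%, 13.3%, 64.6% and 43.5%. Relative to the median tested miRNA, which stood at a log2 fold change of 0.21 in the main scaling, Mir26a-1 was lower by a log2 difference of -0.52 to -0.50 over the 6 scalings. Mir26a-2 differed from that median by -0.49 to -0.47 and Mir26b by -0.30 to -0.28. These ranges are narrow by construction, since a factor per library moves all features about alike. Leaving out each library in turn gave differences from the miRNA median of -0.56 to -0.42 for Mir26a-1, -0.52 to -0.41 for Mir26a-2 and -0.33 to -0.22 for Mir26b. In the main scaling 52 of the 312 tested miRNA features had a lower log2 fold change than Mir26a-1, 60 a lower one than Mir26a-2 and 102 a lower one than Mir26b. Leaving out knockout replicate 1, 2 or 3 moved all features by a median of 0.21, 0.24 and 0.22 and brought Mir26a-1 to -0.01, -0.08 and -0.21, with none of these called.

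**Figure D3:**
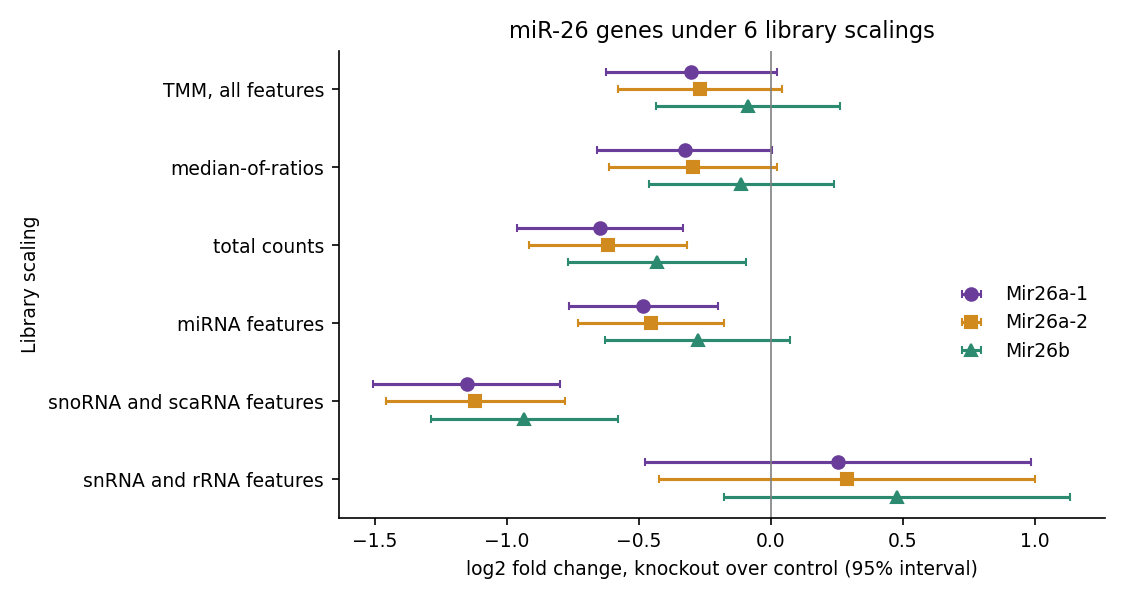
Points give the log2 fold change, knockout over control, of the 3 miR-26 genes under 6 library scalings, with bars for the 95% interval. The 3 genes shift together, from -1.15 for Mir26a-1 with snoRNA and scaRNA factors to 0.48 for Mir26b with snRNA and rRNA factors, and Mir26b lies to the right of the miR-26a genes in each scaling.

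**Figure D4:**
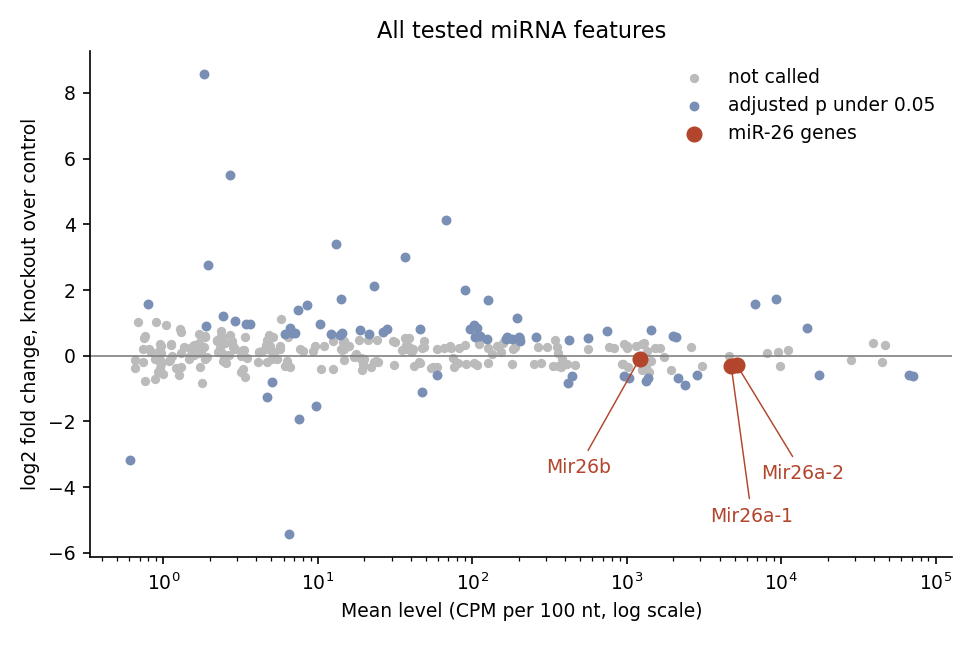
Each point is 1 of 312 tested miRNA features, with its mean level on a log axis (CPM per 100 nt) and its log2 fold change, knockout over control; called features are blue and the miR-26 genes red. The miR-26 genes are among the more abundant features and lie just below 0, none of them called.

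Shares of the miRNA counts need no scaling factor and gave the same order. Mir26a-1 held 1.09%, 1.02% and 1.13% of miRNA counts in knockout replicates 1 to 3 and 1.39%, 1.16% and 1.28% in control replicates 1 to 3, with means of 1.08 ± 0.0591% in knockout hearts and 1.28 ± 0.117% in control hearts. Mir26a-2 held 1.13%, 1.04% and 1.15% in the knockout hearts and 1.36%, 1.19% and 1.30% in the control hearts. For each of these genes no knockout heart reached the lowest control heart, and the exact two-sided permutation p was 0.1, the smallest that 3 against 3 allows. No share or ratio could therefore pass a threshold of 0.05 by this test, whatever its values. Such separation with lower knockout shares was seen in 11.2% of tested miRNA features.

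Mir26b took 0.288%, 0.265% and 0.295% of miRNA counts in the knockout hearts and 0.283%, 0.299% and 0.280% in the control hearts. The groups overlapped (exact two-sided permutation p = 0.8). The 3 genes together made up 2.47 ± 0.136% of miRNA counts in knockout hearts and 2.84 ± 0.196% in control hearts. Of all counts in the table, they made up 0.776 ± 0.0725% in knockout hearts and 1.18 ± 0.115% in control hearts. On that base Mir26b held 0.0887 ± 0.00831% in knockout hearts and 0.120 ± 0.00802% in control hearts, and its groups did not overlap (exact two-sided permutation p = 0.1), a separation with lower knockout shares that 25.0% of tested miRNA features showed.

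The miRNA total holds the muscle miR-1a and miR-133a genes, of which Mir1a-1 and Mir1a-2 fell in knockout hearts. Mir1a-1 had 41769 ± 5669 CPM in knockout hearts and 62211 ± 8782 CPM in control hearts (log2 fold change -0.57, SE 0.14, adjusted p = 0.00420). With the miR-1a and miR-133a genes taken out of the total, Mir26a-1 held 1.42 ± 0.0857% in knockout hearts and 1.95 ± 0.0668% in control hearts. On that base Mir26b held 0.371 ± 0.0226% in knockout hearts and 0.440 ± 0.0385% in control hearts, and its groups did not overlap (exact two-sided permutation p = 0.1). Of the 308 tested miRNA features left on that base, 17.9% were separated with lower knockout shares. Whether the groups of Mir26b overlapped thus depended on the total against which it was set.

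Ratios within a library compare the members directly. Over the 3 pairs that have counts, the ratio of Mir26a-1 to Mir26a-2 was 0.965, 0.979 and 0.983 in knockout replicates 1 to 3 and 1.025, 0.977 and 0.985 in control replicates 1 to 3. The groups overlapped (log2 difference -0.03, exact two-sided permutation p = 0.3), and the 2 genes were nearly equal in every heart.

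The ratio of summed miR-26a counts to Mir26b counts was 7.74, 7.76 and 7.74 in knockout replicates 1 to 3 and 9.71, 7.85 and 9.20 in control replicates 1 to 3. The knockout hearts lay close together and below every control heart, of which replicate 2 was just above them (log2 difference -0.20, exact two-sided permutation p = 0.1). The gene pairs gave log2 differences of -0.21 for Mir26a-1 over Mir26b and -0.18 for Mir26a-2 over Mir26b, each with an exact two-sided permutation p of 0.1. Both pairs use the same Mir26b counts as the summed ratio, so they are not separate results. How often ratios of other miRNA features separate in this way was not examined. Whether the small gap between 7.76 in knockout replicate 2 and 7.85 in control replicate 2 exceeds counting error was not tested either. The control hearts set the size of the difference: without control replicates 1, 2 and 3 in turn, the log2 difference of the summed ratio was -0.13, -0.29 and -0.17.

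**Figure D5:**
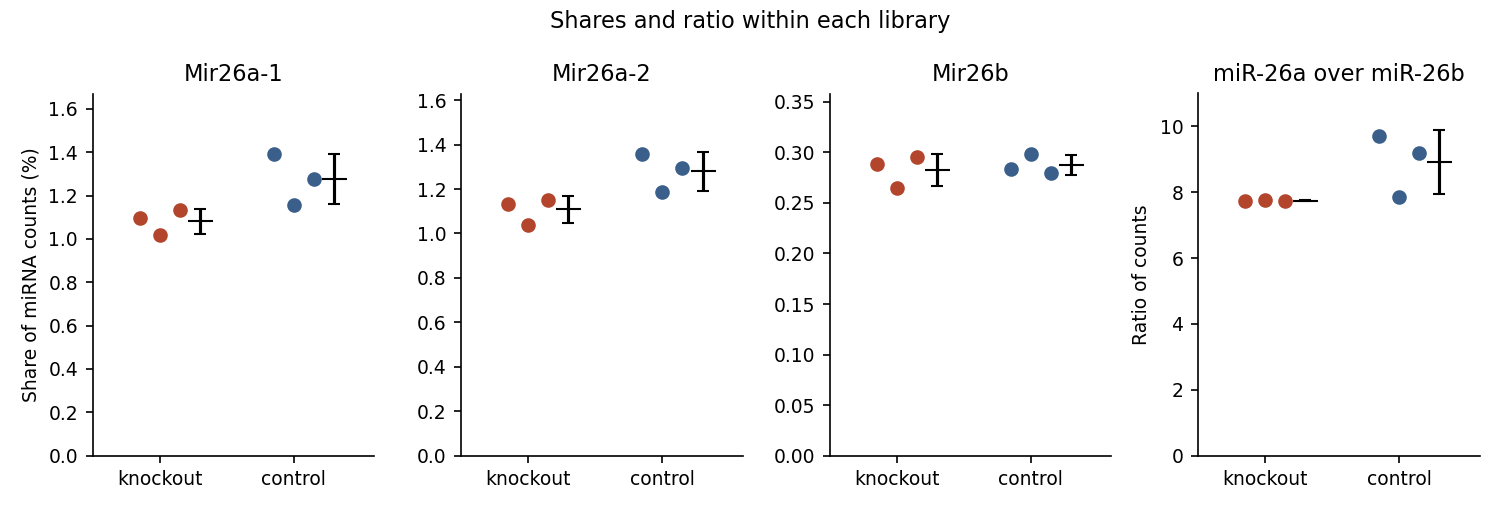
The first 3 panels plot the share of miRNA counts (%) held by each miR-26 gene and the last the ratio of miR-26a to miR-26b counts, with 3 knockout hearts in red, 3 control hearts in blue and the mean ± SD as a bar. Shares of Mir26a-1 and Mir26a-2 are lower in each knockout heart than in any control heart, and the ratio is 7.74 to 7.76 in knockout hearts against 7.85 to 9.71 in control hearts.

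The near-equal counts of Mir26a-1 and Mir26a-2 can be set beside other genes that give an identical mature RNA. The RefSeq table lists an identical mature RNA for 23 pairs with at least 1000 counts in either gene, which does not cover every such pair. Of these, 15 had counts in both, and the larger gene had 1.01 to 2.70 times the counts of the smaller one, with a median of 1.13. Mir26a-1 and Mir26a-2, with 392832 and 397596 counts over the 6 libraries, were at a ratio of 1.01. The muscle pair Mir1a-1 and Mir1a-2, not among the 23, had 4866435 and 4828878 counts, and Mir133a-1 and Mir133a-2 had 122928 and 122741, so near-equal counts were not particular to miR-26a; these pairs were added after their values were seen. In the other 8 listed pairs a gene was at 0. These were 6 genes, all 6 with a hairpin whole inside another non-coding exon, as for Mir22. The sources used here do not state how reads matching several places were counted, so the split of miR-26a-5p reads between its genes is uncertain.

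The miRNA features most like the summed miR-26 genes over the 6 libraries, by Euclidean distance of centred log2 CPM among 95 candidates with at least 100 CPM, were Mir181d, Mir328 and Mir181a-1. Their distances were 0.150, 0.179 and 0.184. Mir181d averaged 119 CPM in knockout hearts and 140.5 CPM in control hearts (log2 fold change -0.24, adjusted p = 0.274). The log2 fold changes of Mir328 and Mir181a-1 were -0.29 (adjusted p = 0.180) and -0.21 (adjusted p = 0.311).

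Listed miRNAs of the heart give the setting of the miR-26 values, and their counts hold for TMM scaling and shift with the other factors above. Of 42 tested abundant heart miRNAs, 5 rose, 6 fell and 31 did not pass, with a median log2 fold change of 0.02, beside -0.01 over all tested features and 0.21 over tested miRNA features. Of 19 tested hypertrophy and stress miRNAs, 9 rose, 0 fell and 10 did not pass (median 0.65). For these lists and the markers below, the background was 23.2% of all tested features called higher and 27.0% lower. Among tested miRNA features it was 17.0% higher and 6.41% lower. Mir21a, a miRNA of fibrosis and stress, rose, with 9350 ± 1469 CPM in knockout hearts and 3135 ± 42.6 CPM in control hearts (log2 fold change 1.58, SE 0.15, adjusted p = 6.76e-06). Mir27b rose as well, with 13719 ± 782 CPM in knockout hearts and 7680 ± 1583 CPM in control hearts (log2 fold change 0.84, SE 0.15, adjusted p = 0.000737).

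Markers of the cell types in a whole heart moved unevenly, and their part in the miR-26 values was not tested. Of the markers at 0, Mir133b, Mir155, Mir223, Mir199a-2, Mir214, Mir124a-1 and Mir9-2 have a hairpin whole inside another non-coding exon, as Mir22 does. Mir206 has one in part. Of all miRNA features, 98.1% with a whole overlap were at 0, 42.1% with a part overlap and 58.8% with none. The part of this position in the markers' zeros was not tested. These zeros are values of the count table and do not show whether the miRNAs were missing. If reads were left out, the sums are too low. Of 8 tested striated muscle markers 1 rose, 3 fell and 4 did not pass. The 3 that fell were Mir1a-1, Mir1a-2 and Mir486 (log2 fold change -0.67, adjusted p = 0.00496 for Mir486). Mir486 is known from red cells as well, and was named here after its values were seen. The muscle markers summed to 73953 to 94724 CPM in knockout hearts and 119907 to 149782 CPM in control hearts, with Mir133b and Mir206 at 0. The endothelial Mir126a did not pass (log2 fold change -0.13, adjusted p = 0.424), with Mir126b at 0 and endothelial sums of 17610 to 20960 CPM in knockout hearts and 19520 to 23749 CPM in control hearts. Smooth muscle and fibroblast markers summed to 24403 to 32234 CPM in knockout hearts and 27812 to 34974 CPM in control hearts, with Mir199a-2 and Mir214 at 0, 2 of 4 tested rose, among them Mir199a-1 (log2 fold change 0.79, adjusted p = 0.00183), and Mir143 did not pass (log2 fold change -0.20, adjusted p = 0.269).

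Red cell markers summed to 877 to 1424 CPM in knockout hearts and 504 to 1188 CPM in control hearts, and of 2 tested, Mir144 rose (log2 fold change 0.85, adjusted p = 0.0353) and Mir451a did not pass (0.40, adjusted p = 0.258). Mir486, listed under striated muscle but known from red cells as well, went the other way. Leukocyte markers summed to 399 to 434 CPM in knockout hearts and 326 to 434 CPM in control hearts, with Mir155 and Mir223 at 0, 1 of 3 tested lower and Mir142 (log2 fold change 0.51, adjusted p = 0.0751) and Mir146 (0.08, adjusted p = 0.755) not called. Markers of brain, liver and pancreas summed to 25.8 to 33.5 CPM in knockout hearts and 20.2 to 27.7 CPM in control hearts, with Mir124a-1 and Mir9-2 at 0; Mir9-1 did not pass (log2 fold change -0.16, adjusted p = 0.562), and Mir217, a pancreatic miRNA, rose to 5.69 CPM in knockout hearts, against 0.114 CPM in control hearts (log2 fold change 5.52, adjusted p = 6.05e-07).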

How the data were processed

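Small RNA was measured in whole hearts of 3 knockout and 3 control mice, grouped by sample title. Per the series' design text, 4 technical replicates were sequenced per mouse; the sources used here do not state how these were combined. The authors deposited raw counts per feature, which entered every test, and the results of their comparison as a table, with a mean normalized signal, log2 fold changes, a Wald score and p-values, per the file headers. The build was mm10 and the tools were featureCounts 1.5.1, DESeq2 1.16.1, Bowtie2 2.2.9 and cutadapt 1.14, per the submitters' processing notes; the counting annotation, strand setting and treatment of reads in several features or places are not stated there. There were 0 columns of other samples.

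Features were kept with filterByExpr (minimum count 10, minimum total 15), scaled by TMM (factors 0.950, 0.828 and 0.889 in knockout and 1.14, 1.09 and 1.15 in control replicates) and tested, knockout against control, with edgeR 4.0.16 (glmQLFit, glmQLFTest; R 4.3.3), adjusted by Benjamini-Hochberg over 1144 features and called under 0.05. The biological coefficient of variation was 0.217, and no 2 libraries were alike within counting noise (chi-square per degree of freedom at least 79.1). Every adjusted p is from this fit unless another tool, scaling or table is named. Shares and ratios were compared by exact permutation tests and not adjusted over the members. Positions came from GENCODE M21. Nothing in the labels says more of the animals, so p-values measure the spread between these 6 mice. Alternatives were other scalings, DESeq2 1.42.0, no filter, a replicate block, other denominators and leaving out each library. Members and lists were chosen with earlier results of these data known. Named genes were the members, the 3 nearest in pattern, the 2 highest tested genes of each list and features overlapping a member; others are marked in the text. Scripts were tested on simulated data.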

Additional observations from a re-analysis of the deposited data

How the results depend on the processing

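Relative to the scaling reported, total counts alone, miRNA factors and snoRNA and scaRNA factors moved the log2 fold change of summed miR-26a to -0.63, -0.48 and -1.14 and of all 3 miR-26 genes to -0.61, -0.43 and -1.11, with Mir26a-1 at -0.65, -0.48 and -1.15, Mir26a-2 at -0.62, -0.45 and -1.12, and Mir26b past the test at -0.43 (total counts) and -0.93 (snoRNA and scaRNA factors). snRNA and rRNA factors reversed them to 0.25 for Mir26a-1, 0.29 for Mir26a-2, 0.48 for Mir26b, 0.27 for summed miR-26a and 0.29 for all 3; no filter on low counts gave 0.048, 0.082, 0.27, 0.065 and 0.087 while moving all features by a median of 0.36. Leaving out each library gave -0.38 to -0.01 for Mir26a-1, -0.34 to 0.020 for Mir26a-2, -0.19 to 0.21 for Mir26b, -0.36 to 0.0082 for summed miR-26a and -0.35 to 0.033 for all 3, none called; leaving out knockout replicate 1, 2 or 3 moved all features by 0.21, 0.24 and 0.22, and Mir26b was then at 0.21, 0.15 and 0.02.

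Differences in share of miRNA counts without each library were -0.254 to -0.137 percentage points for Mir26a-1, -0.219 to -0.133 for Mir26a-2, -0.0108 to 0.00429 for Mir26b (reversed at 0.00429 without knockout replicate 2 and 0.000988 without control replicate 2) and -0.472 to -0.276 for all 3. Log2 ratios ranged from -0.04 to -0.01 (Mir26a-1 over Mir26a-2), -0.31 to -0.14 (Mir26a-1 over Mir26b), -0.26 to -0.13 (Mir26a-2 over Mir26b) and -0.29 to -0.13 (summed miR-26a over Mir26b). With 2 against 3 libraries, as with 3 against 3, the exact test cannot pass the threshold.

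The count of called features, 574 of 1144 tested, was 1141 of 9254 with no filter. DESeq2 called 907 of 2478 (30.0% of them higher, against 46.2%). Without each library the count ran from 486 of 1168 (without control replicate 3) to 908 of 1410 (without control replicate 1). The number tested differed between these settings, so the counts are not like for like. The cause of the differences was not tested. DESeq2 called no miR-26 gene (adjusted p = 0.196, 0.231 and 0.735 for Mir26a-1, Mir26a-2 and Mir26b). Correlations of same-numbered deviations (-0.13, -0.02 and -0.19) gave no sign that replicate numbers pair the hearts, though 3 hearts per group cannot exclude it. With the replicate block 536 features were called and the miR-26 genes stayed at -0.30, -0.27 and -0.09. Mir22, at 0 counts, gave no value under any alternative.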
